A study of Mus musculus with 4 samples.

Results

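Mature Ccr7 Fscn1 dendritic cells (DCs) were defined in the ascites of mice given BTYNB, alone or with a PD-1 blocking antibody, as cells with at least 1 unique molecular identifier (UMI, 1 counted transcript) of Ccr7, at least 2 of Fscn1 and at least 5 of the MHC class II gene H2-Ab1. Cells with more than 1 UMI of the Cd3 genes, 2 of the Cd79 genes, 1 of the C1q genes or 2 of Krt7, Krt8, Krt18 and Krt19 together were left out. The definition held for 188 of 25325 cells that had at least 200 genes and at most 33% mitochondrial UMIs, with 149 cells in the BTYNB library and 39 in the combination library. They were set beside 1379 comparison DCs, cells within the same limits with at least 2 UMIs of Xcr1, Clec9a and Cd209a together and 0 of Fscn1, of which 800 were in BTYNB and 579 in combination. Of these comparison DCs, 445 and 413 had the type 1 markers Xcr1 or Clec9a alone, and 326 and 143 had the type 2 marker Cd209a alone.

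The series measured 45178 ascites cells within those limits in 4 libraries, with 78603888 to 114600397 UMIs a library. All animals were female C57BL/6 mice that carried ID8-Trp53-/- cells, a mouse ovarian surface epithelial line without Trp53, in the peritoneum. Treatment began 7 days after engraftment and ended when about 3 mL of ascites had formed. Control mice received the solvent DMSO and an IgG2a isotype antibody, BTYNB mice the small molecule BTYNB, directed at the RNA-binding protein Igf2bp1, and the isotype antibody, anti-PD-1 mice DMSO and the antibody RMP1-14, and combination mice BTYNB and RMP1-14. The dose amounts differ between the sample labels and the methods of the study and are left out. Animals of a treatment were pooled into 1 library, so the spread between animals is unknown and no difference between treatments could be tested. Mature and comparison DCs were chosen by their transcripts, so differences between them were not tested either. Every interval below is an exact 95% interval that covers counting error only.

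Conventional DCs sample antigen in tissues as immature cells, type 1 DCs serving mainly CD8 T cells and type 2 DCs mainly CD4 T cells. On maturation they lose receptors for uptake, gain costimulatory molecules, and gain Ccr7, the chemokine receptor that guides them into lymphatic vessels and lymph nodes. Fscn1 encodes fascin, which bundles actin in their dendrites. In tumours, mature DCs are also known to carry regulatory molecules such as the PD-1 ligand Cd274.

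Flt3, the receptor for the growth factor of DCs, was not used to choose the cells and served as a check of their label. It was detected in 105 of 149 mature cells of BTYNB and in 26 of 39 of combination. Its level in mature against comparison DCs was 380.4 against 329 CPM in BTYNB and 246 against 323 CPM in combination, where CPM is the count per 1000000 UMIs summed over the cells of a kind. After each cell had been thinned to 3000 UMIs, 58.9% and 43.6% of mature DCs in BTYNB and combination had a Flt3 UMI. The share was 51.2% and 55.3% of comparison DCs and 0.0401% and 0.215% of tumour cells, which should lack the gene and serve as a background. Tumour cells held medians of 19374 and 12984 UMIs before thinning, more than the DCs did, so their share may understate free RNA in DCs. Flt3 was thus detected in a like share of mature and comparison DCs and well above that background. Other genes of conventional DCs gave a mixed picture. Of 9 pan DC genes, 1 was higher and 2 lower in mature than in comparison DCs by the 2-fold count defined below. The higher one was Traf1, an adaptor of TNF receptors that is also counted among the NF-kB genes below, so it says little of DC identity. It had a UMI in 71.0% and 59.0% of thinned mature and 16.6% and 15.4% of comparison DCs of BTYNB and combination. The integrin Itgax had a UMI in 6.45% and 5.13% of mature and 45.1% and 40.9% of comparison DCs, and Cd24a in 22.6% and 25.6% and 68.2% and 79.3%. The protease gene Dpp4 had one in 82.3% and 69.2% and 58.9% and 58.2%. Zbtb46, a transcription factor of conventional DCs, had one in 26.6% and 12.8% of mature and 7.98% and 15.5% of comparison DCs, but also in 8.02% and 7.98% of tumour cells, within the interval of the mature DCs of combination (4.30 to 27.4%).

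By number and by share of all cells, mature DCs were found almost entirely in the libraries of BTYNB-treated mice. They were 149 of 18283 cells in BTYNB, or 0.815% (0.690 to 0.956%), and 39 of 7042 in combination, or 0.554% (0.394 to 0.756%). In the control library they were 1 of 7834, or 0.0128% (0.000323 to 0.0711%), and in the anti-PD-1 library 1 of 12019, or 0.00832% (0.000211 to 0.0463%). The control cell held 60 Ccl5 UMIs and 4 Ccl22 UMIs, and the anti-PD-1 cell 6 and 0. Comparison DCs were also scarce there, with 37 cells in control and 21 in anti-PD-1, so that the mature share of mature and comparison DCs was 2.63% (0.0666 to 13.8%) and 4.55% (0.115 to 22.8%). These shares rest on 38 and 22 cells, and their intervals overlap those of BTYNB and combination given next. No difference in that share was tested.

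Among mature and comparison DCs, the mature share was 15.7% in BTYNB (13.4 to 18.2%) and 6.31% in combination (4.53 to 8.53%), but the libraries differed in the depth of their cells. The shallowest deposited cell had 869 UMIs in BTYNB and 5115 in combination, and the median mature DC had 4488 and 6130 UMIs beside 7120.5 and 6675 for comparison DCs. With only cells of at least 5115 UMIs, 47 of 650 DCs of BTYNB were mature, or 7.23% (5.36 to 9.50%), and the intervals of the 2 libraries overlapped. Over leukocytes, taken as cells with a Ptprc UMI, the order turned round, with 1.11% in BTYNB (126 of 11398) and 1.49% in combination (38 of 2548), and it turned back with leukocytes of at least 5115 UMIs, at 1.78% and 1.49%. Pairs of libraries shared 0 to 4 cell barcodes, and mature DCs shared 0.

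**Figure D1:**
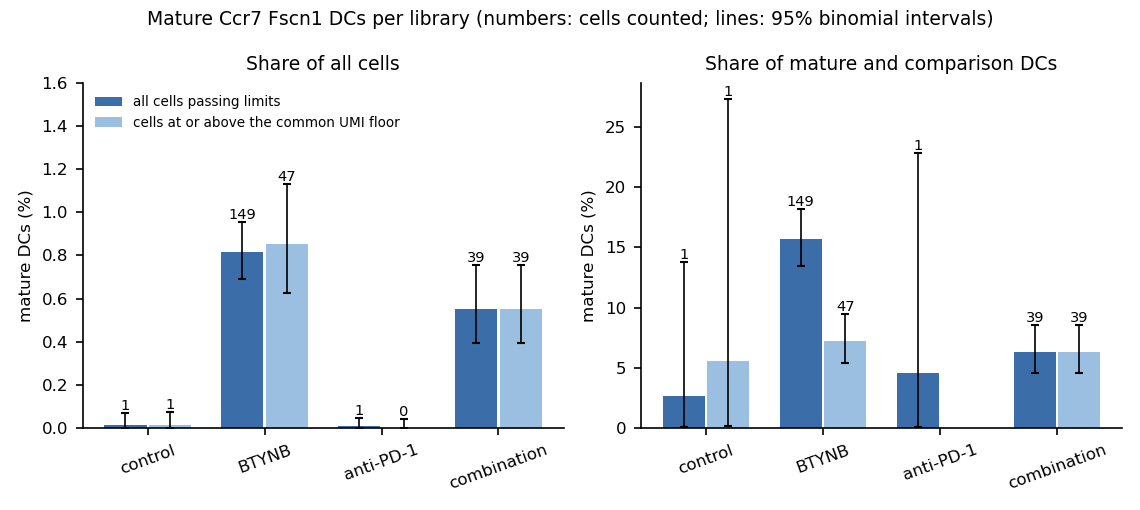
Share of mature Ccr7 Fscn1 DCs in the 4 libraries, in percent of all cells and of mature plus comparison DCs, from all cells and from cells with at least 5115 UMIs, with exact 95% binomial intervals as lines. BTYNB and combination stand above the 1 cell each of control and anti-PD-1 in the share of all cells, and the BTYNB share of DCs went from 15.7% to 7.23% at the 5115 UMI floor.

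Cells near the edges of the definition are given as a description. In BTYNB, the 26 members with 2 or 3 Fscn1 UMIs held 7693 CPM of Ccl5, the 12 cells left out for having 1 Fscn1 UMI held 2245 CPM, and the 14 cells left out for having no Ccr7 UMI held 1008 CPM. In combination the 5 members with 2 or 3 Fscn1 UMIs held 3169 CPM, and the 3 and 9 cells just outside held 1794 and 50.0 CPM. Cells with Fscn1 and no Ccr7 had the least Ccl5 in both libraries.

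A larger share of cells lay beyond the limit on H2-Ab1. Without that limit, 320 cells of BTYNB and 68 of combination qualified, and 171 (53.4%, 47.8 to 59.0%) and 29 (42.6%, 30.7 to 55.2%) of them held fewer than 5 H2-Ab1 UMIs. Among comparison DCs chosen without the limit, 35 of 835 (4.19%) and 1 of 580 (0.172%) did. After thinning to 3000 UMIs the shares were 57.1% and 48.5% of Ccr7 Fscn1 cells and 3.36% and 0.172% of comparison DCs, so the gap was as large at equal depth. Without the limit, the control library held 7 Ccr7 Fscn1 cells, or 15.9% of its 44 Ccr7 Fscn1 and comparison cells (6.64 to 30.1%). The anti-PD-1 library held 2 of 23, or 8.70% (1.07 to 28.0%). The same share was 27.7% in BTYNB (25.1 to 30.4%) and 10.5% in combination (8.24 to 13.1%).

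The cells with few H2-Ab1 UMIs differed from the members in other genes too. Ciita, the master regulator of MHC class II genes, was at 8.14 and 0 CPM against 199 and 210.4 CPM in the members, in BTYNB and combination in that order. Ccl5 was at 10908 and 9922 CPM against 6213 and 4347 CPM and Ccl22 at 857 and 1089 CPM against 317 and 520.1 CPM, both higher in the cells with few H2-Ab1 UMIs. Fabp5 was lower in them, at 1816 and 1236 CPM against 3209.9 and 3021 CPM, and Cd274 was at 754 and 697 CPM against 665 and 508 CPM. The members described below are the MHC class II-high side of the Ccr7 Fscn1 cells, and their MHC class II levels were bounded by the definition.

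Since measured transcripts chose the cells, mature and comparison DCs are compared as a description. A gene was counted as higher or lower where the ratio of the CPM, with 5 CPM added to each, was at least 2-fold in both libraries. Of 9666 genes with at least 50 UMIs, 600 (6.21%) were higher and 877 (9.07%) lower in mature DCs, and the median log2 ratio was -0.14 in BTYNB and -0.17 in combination. Scaling by the median of ratios shifted these medians by a further -0.11 and -0.17, and gave 492 higher and 1136 lower genes, so that 30.2% in place of 40.6% of the counted genes were higher. Of the 930 genes at least 2-fold higher in BTYNB, 600 were also higher and 7 were lower in combination. The count of each gene list below is to be read against those 6.21% and 9.07% of all genes.

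**Figure D2:**
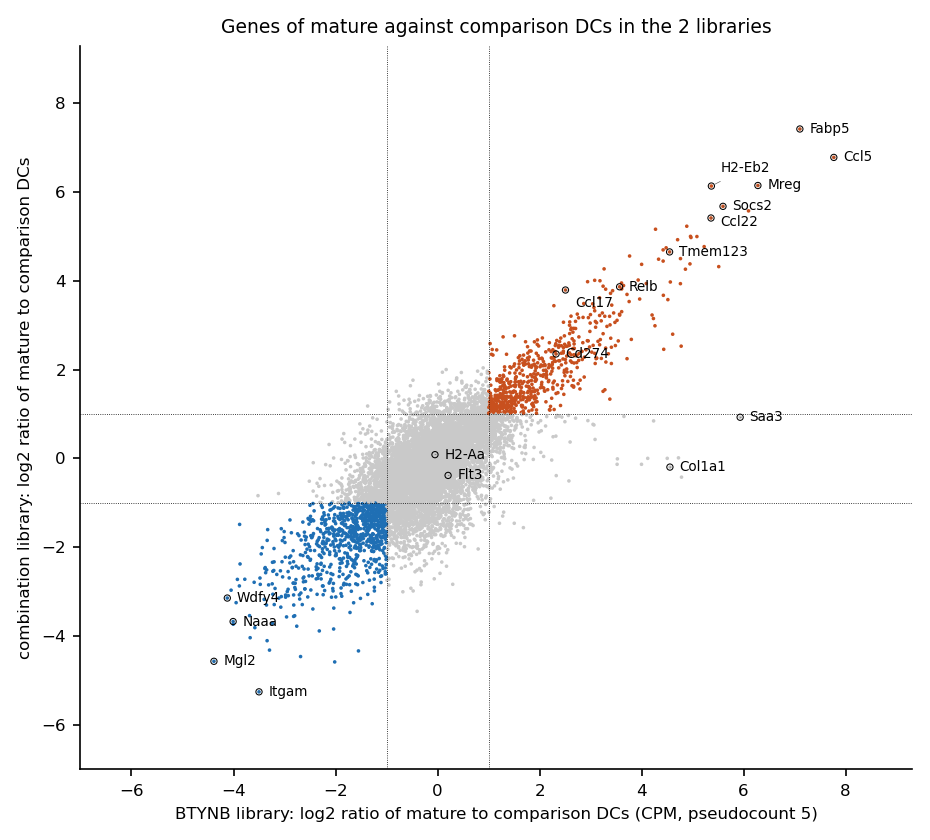
Log2 ratio of mature to comparison DCs in BTYNB (horizontal) and in combination (vertical) for 9666 genes, each point a gene, from CPM with 5 CPM added. The 600 genes at least 2-fold higher in both libraries and the 877 lower in both are coloured; Ccl5 and Fabp5 lie far up in both and Mgl2 far down in both.

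Ccl5, which attracts T cells and monocytes, had one of the largest ratios. It was at 6213 against 23.5 CPM in BTYNB and 4347 against 34.6 CPM in combination, or 264-fold (222 to 316) and 126-fold (105 to 151) higher in mature DCs. Single mature cells held 0 to 238 UMIs with a median of 19 in BTYNB and 1 to 87 UMIs with a median of 21 in combination. After thinning, 94.4% and 97.4% of mature DCs had a Ccl5 UMI, against 1.86% and 3.45% of comparison DCs and 1.04% and 2.0% of tumour cells. Nearly every mature DC carried Ccl5, and the share of comparison DCs was close to that of tumour cells.

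Ccl22, a ligand of Ccr4 on regulatory and helper T cells, was at 317 against 2.83 CPM in BTYNB and 520.1 against 7.32 CPM in combination, or 112-fold (67.4 to 199) and 71.1-fold (47.5 to 109.5) higher. It was detected in 34.7% and 46.2% of thinned mature DCs, 0.532% and 0.864% of comparison DCs and 0.0401% and 0.0307% of tumour cells, a smaller share of mature DCs than Ccl5. Ccl17, the other Ccr4 ligand, was at 107 against 14.7 CPM in BTYNB and 159 against 6.83 CPM in combination. Of 188 mature DCs, 88 had Ccl22, 26 had Ccl17 and 23 had both. Cells with Ccl22 held a median of 5742.5 UMIs and cells without it 4264.5, and the part of depth in this overlap was not tested.

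Of 12 chemokines with enough UMIs, 4 were higher and 5 lower, with median log2 ratios of -0.53 in BTYNB and -0.22 in combination. Cxcl16, a membrane-bound ligand of Cxcr6 on T cells, was the remaining higher member, at 435 against 66.7 CPM in BTYNB and 627 against 63.6 CPM in combination. Ccl6, a chemokine of myeloid cells, was lower at 77.7 against 327 CPM and 63.5 against 308 CPM, and so was Cxcl2, which attracts neutrophils, at 66.6 against 261 CPM and 19.9 against 183 CPM. The other lower members were Ccl3, Ccl4 and Ccl9. Ccl19, a ligand of Ccr7 itself, had 0 UMIs in mature and comparison DCs of both libraries.

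Of 14 checkpoint ligands and regulatory genes, 9 were higher and 2 lower, with median log2 ratios of 1.91 in BTYNB and 2.27 in combination. Cd274, encoding PD-L1, was at 665 against 129 CPM in BTYNB and 508 against 95.6 CPM in combination, or 5.16-fold (4.58 to 5.79) and 5.32-fold (4.32 to 6.51) higher. A Cd274 UMI was found in 77.4% and 61.5% of thinned mature DCs, 25.5% and 19.5% of comparison DCs and 3.53% and 4.97% of tumour cells. Pdcd1lg2, encoding the other PD-1 ligand, was at 126 against 11.0 CPM in BTYNB and 127 against 6.83 CPM in combination, or 11.5-fold (8.25 to 16.2) and 18.6-fold (10.9 to 32.1) higher. Of 72 mature DCs with Pdcd1lg2, 70 also had Cd274, which was found in 163 of all 188. Without thinning, 87.2% and 84.6% of mature DCs had Cd274, 98.0% and 100% had Ccl5 and 41.6% and 66.7% had Ccl22. Ligands of PD-1 were thus detected in most mature DCs of both libraries.

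Socs2, a suppressor of cytokine signalling, was at 425 against 3.89 CPM in BTYNB and 413 against 3.17 CPM in combination. Il4i1, a secreted amino acid oxidase that restrains T cells, was at 190.2 against 1.24 CPM and 191 against 1.22 CPM. Cd200, which acts on an inhibitory receptor of myeloid cells, was at 153 against 8.32 CPM and 135 against 9.75 CPM, and the death receptor Fas at 45.8 against 1.42 CPM and 43.7 against 1.71 CPM. Mature DCs of both libraries had like levels of these 4 genes. Socs1, Nectin2 and Aldh1a2 were also higher. However, Aldh1a2, which makes retinoic acid, had a UMI in 22.8% and 21.3% of thinned tumour cells beside 31.5% and 25.6% of mature DCs, and Nectin2, an adhesion ligand, in 35.1% and 32.5% of tumour cells beside 4.84% and 7.69% of mature DCs. Lgals9 and Vsir, encoding galectin-9 and VISTA, were lower, Vsir at 18.0 against 58.9 CPM and 19.9 against 54.9 CPM. Ido1 had 2 UMIs and Ido2 had 0 in all 188 mature DCs.

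**Figure D3:**
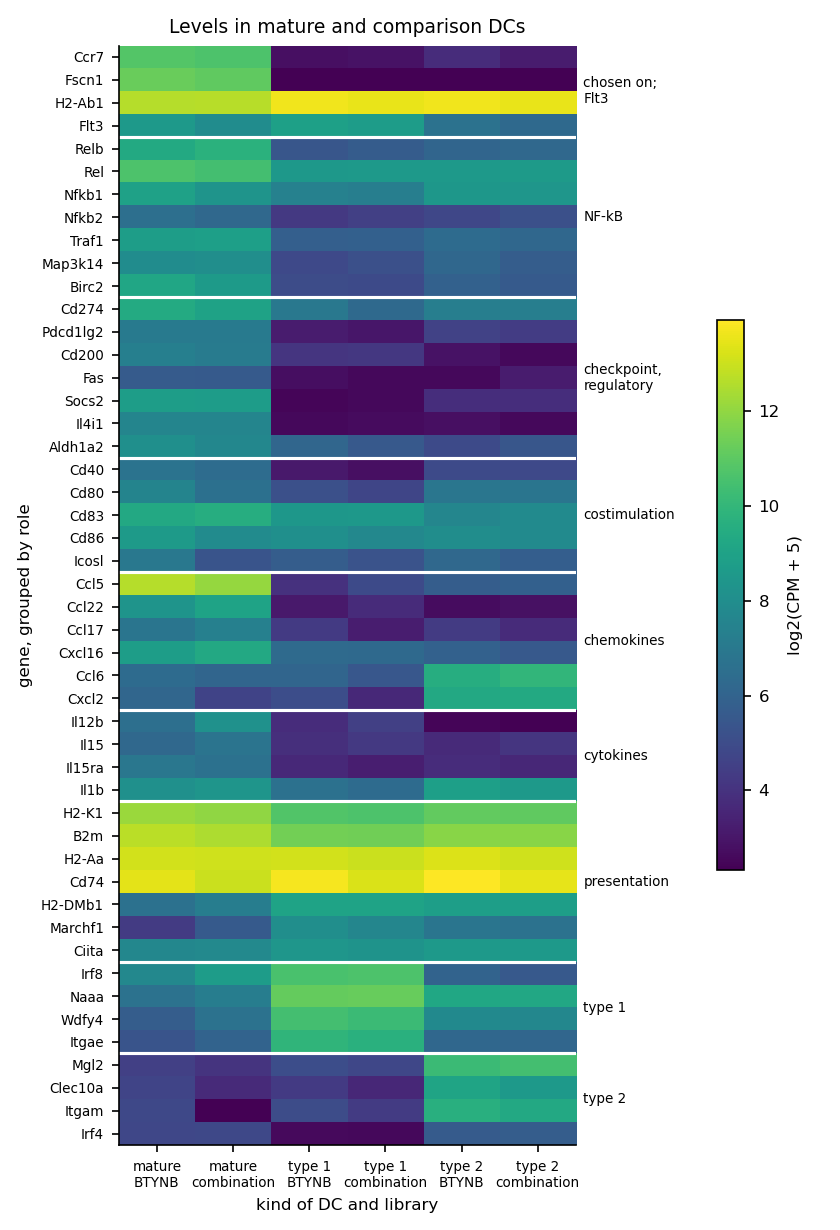
Levels of genes as log2 of CPM plus 5 in mature DCs and in comparison DCs of type 1 and type 2 of the BTYNB and combination libraries, grouped by role. Colours are to be compared along a row; the Ccl5, Ccl22, Cd274 and Relb rows are highest in mature DCs of both libraries, and the Naaa and Mgl2 rows are highest in comparison DCs.

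Of 9 costimulatory genes, 4 were higher and 1 lower, with median log2 ratios of 1.12 in BTYNB and 0.94 in combination. Cd40, through which helper T cells license DCs, was at 99.96 against 11.9 CPM in BTYNB and 79.4 against 8.05 CPM in combination, or 8.43-fold (5.96 to 11.9) and 9.87-fold (5.37 to 17.7) higher. Cd83 was at 622 against 284 CPM and 746 against 322 CPM, and the adhesion molecule Icam1 at 129 against 52.9 CPM and 206 against 74.6 CPM. However, Icam1 had a UMI in 22.5% and 24.3% of thinned tumour cells beside 24.2% and 43.6% of mature DCs. Of the ligands of CD28, Cd80 was at 185 against 63.7 CPM and 91.3 against 45.1 CPM and Cd86 at 396 against 260.5 CPM and 238 against 216 CPM. Tnfsf4, encoding OX40 ligand, was higher on 12 and 10 UMIs. Cd48, a ligand of Cd244, was the lower member, at 70.8 against 274 CPM and 91.3 against 317 CPM.

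Of 10 cytokine genes with enough UMIs among 17 listed, 3 were higher and 1 lower, with median log2 ratios of 0.08 in BTYNB and 0.75 in combination. Il15, which supports CD8 T and natural killer cells, was at 69.4 against 8.85 CPM in BTYNB and 103 against 13.7 CPM in combination, and Il15ra, the chain that presents it, at 117 against 7.96 CPM and 95.3 against 5.37 CPM. Il12b, a subunit of interleukin-12 and interleukin-23, was at 90.2 against 5.49 CPM and 282 against 12.9 CPM. Its UMIs came from 8 of 149 mature DCs of BTYNB and 7 of 39 of combination, and 51 of the 71 UMIs of combination from 1 cell. Il12a had 1 and 0 UMIs, Il6 had 0 and 1 UMIs, and Il23a and Il27 had 0 in mature DCs. Il1b was at 276 against 234 CPM and 326 against 173 CPM.

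Of 18 genes of NF-kB signalling, the pathway that drives DC maturation, 10 were higher and 0 lower, with median log2 ratios of 1.58 in BTYNB and 1.61 in combination. Relb, a subunit of the non-canonical branch, was at 648 against 50.1 CPM in BTYNB and 846 against 53.4 CPM in combination, or 12.9-fold (11.1 to 15.1) and 15.8-fold (13.1 to 19.2) higher. A Relb UMI was found in 83.9% and 82.1% of thinned mature DCs, 13.8% and 14.9% of comparison DCs and 15.3% and 14.4% of tumour cells. Its partner Nfkb2 was at 90.2 against 17.5 CPM and 71.5 against 20.5 CPM, and Map3k14, the kinase that starts this branch, at 242 against 41.2 CPM and 262 against 35.8 CPM. The same direction was seen for the ubiquitin ligase genes Birc2, at 576 against 38.0 CPM and 397 against 29.8 CPM, and Traf3, at 171 against 30.3 CPM and 183 against 26.3 CPM, which hold that kinase in check. Of the canonical subunits, Rel was at 1601 against 359 CPM and 1394 against 375 CPM, Rela at 114 against 52.6 CPM and 127 against 47.1 CPM and Nfkb1 at 494 against 237 CPM and 318 against 199 CPM. The inhibitor Nfkbia was at 1236 against 359 CPM and 1191 against 359.7 CPM.

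The promoters of Ccl22, Pdcd1lg2 and Nfkb2 are shown because these genes carry the chemokine, PD-1 ligand and NF-kB results above. Each is the 250 bases before a gene start on the plus strand, from RefSeq on build GRCm38.p6, at chr8:94745434-94745683, chr19:29410669-29410918 and chr19:46304487-46304736, the last being the first of 3 listed starts. Capitals mark every match to the NF-kB consensus on either strand.
Ccl22: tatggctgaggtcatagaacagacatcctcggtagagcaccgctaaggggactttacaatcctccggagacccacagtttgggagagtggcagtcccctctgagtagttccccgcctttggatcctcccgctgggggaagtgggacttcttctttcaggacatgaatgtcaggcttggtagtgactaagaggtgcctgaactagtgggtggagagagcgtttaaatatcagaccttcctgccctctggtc
Pdcd1lg2: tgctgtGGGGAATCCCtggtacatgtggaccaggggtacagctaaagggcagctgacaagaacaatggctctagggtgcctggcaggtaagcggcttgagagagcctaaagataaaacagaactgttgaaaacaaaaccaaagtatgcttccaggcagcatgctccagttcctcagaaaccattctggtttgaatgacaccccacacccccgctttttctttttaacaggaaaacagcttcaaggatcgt
Nfkb2: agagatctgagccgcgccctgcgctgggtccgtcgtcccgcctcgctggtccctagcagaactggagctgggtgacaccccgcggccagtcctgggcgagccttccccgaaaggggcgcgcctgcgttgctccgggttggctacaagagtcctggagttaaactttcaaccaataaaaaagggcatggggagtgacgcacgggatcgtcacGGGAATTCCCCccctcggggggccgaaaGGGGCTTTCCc
Pdcd1lg2 had 1 match, 244 to 235 bases before the start, the Nfkb2 window had 3 matches in 2 stretches, 39 to 29 and 11 to 2 bases before the start, and the Ccl22 window had 0. Of the 600 higher genes, 472 had a promoter in the table, and 56 of these (11.9%) held a match. The share was 5.52% of the 7713 promoters of all measured genes, 4.59% of 676 promoters of lower genes and 4.46% of all 27025. Of the 15 higher genes with the largest ratios, 9 had a promoter in the table and 0 held a match. These are descriptions of the letters in the windows.

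Of 13 genes of survival and death, 6 were higher and 1 lower. Cflar, an inhibitor of caspase 8, was at 262 against 49.0 CPM in BTYNB and 334 against 53.2 CPM in combination. Bcl2a1b, an antiapoptotic relative of Bcl2, was at 132 against 30.3 CPM and 206 against 28.3 CPM, although the Bcl2a1 genes are near-identical copies and the split of their counts is uncertain. Of 12 genes in a list of IL-4 receptor and GM-CSF signalling, 6 were higher and 0 lower. That list also held the TNF receptor family genes Tnfrsf11a and Tnfrsf4, both among the higher members, so its count is not one of those pathways alone. The IL-4 receptor chain Il4ra had a UMI in 14.5% and 17.9% of thinned mature DCs and 18.2% and 14.0% of comparison DCs. Jak2, a kinase of the GM-CSF receptor, was at 1489.7 against 403 CPM in BTYNB and 921 against 304 CPM in combination, and Csf2rb, the beta chain of that receptor, at 802 against 376 CPM and 647 against 288 CPM. Tnfrsf11a, the receptor RANK, was at 192 against 23.9 CPM and 151 against 28.8 CPM, and Tnfrsf4, the receptor OX40, was higher on 27 and 14 UMIs.

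Of 19 cytoskeleton genes, 7 were higher and 2 lower. Marcksl1, which ties actin to the membrane, was at 999.6 against 37.5 CPM in BTYNB and 667 against 37.8 CPM in combination, and the related Marcks at 1455 against 356 CPM and 1413 against 466 CPM. The small GTPase Rap2b was at 268 against 29.2 CPM and 357 against 33.4 CPM and the tubulin Tubb2b at 111 against 12.4 CPM and 175 against 13.9 CPM. Of 12 genes of migration other than Ccr7, 1 was higher and 5 lower. The integrin chain Itga4 was the higher member, at 1023 against 243 CPM in BTYNB and 683 against 222 CPM in combination. Ccr2, the receptor that draws myeloid cells from blood, was at 65.3 against 892 CPM and 55.6 against 992 CPM, or 13.7-fold (10.3 to 18.6) and 17.8-fold (10.6 to 32.7) lower. Ccr1, Itgae and Itgb7 were among the other lower members.

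Of 18 genes for antigen uptake and pattern recognition, 0 were higher and 12 lower, with median log2 ratios of -1.53 in BTYNB and -1.92 in combination. The scavenger receptor Cd36 was at 22.2 against 172 CPM in BTYNB and 23.8 against 254 CPM in combination, the mannose receptor Mrc1 at 11.1 against 107 CPM and 3.97 against 99.7 CPM, and the inhibitory Fc receptor Fcgr2b at 65.3 against 274 CPM and 51.6 against 253 CPM. Myd88, the adaptor of most Toll-like receptors, was at 40.3 against 134 CPM and 43.7 against 98.5 CPM. Clec7a, a receptor for fungal glucans, was not lower in both, at 179 against 242 CPM and 234 against 168 CPM. Tlr3, which senses double-stranded RNA, was among the 15 lowest genes on 4 and 3 UMIs, but its log2 ratio in combination was 1.26 against type 2 comparison DCs alone.

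Of 16 genes of MHC class I presentation, 4 were higher and 2 lower. H2-K1 was at 4526 against 1930.3 CPM in BTYNB and 4038 against 1769.7 CPM in combination and B2m, the light chain of class I molecules, at 6659 against 3100.3 CPM and 5737 against 2958 CPM. Nlrc5, the transactivator of these genes, was at 253 against 89.4 CPM and 258 against 89.0 CPM, or 2.83-fold (2.37 to 3.36) and 2.90-fold (2.19 to 3.78) higher. The peptide transporter Tap1 was at 511 against 524 CPM and 572 against 579.7 CPM. Calr and Pdia3, chaperones of peptide loading, were lower, Pdia3 at 276 against 894 CPM and 334 against 853 CPM. Class I genes share long stretches of sequence, so the split of counts among H2-K1, H2-D1 and H2-Q7 is uncertain.

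Of 13 MHC class II genes other than H2-Ab1, 1 was higher and 4 lower. H2-Aa was at 8966 against 9288 CPM in BTYNB and 8651 against 8167 CPM in combination and the invariant chain Cd74 at 10997 against 14143 CPM and 8036 against 10187 CPM. H2-DMa and H2-DMb1, which exchange peptides on class II molecules, were lower, H2-DMb1 at 94.4 against 492 CPM and 143 against 506 CPM. Marchf1, a ubiquitin ligase that clears class II from the surface of immature DCs, was lower on 11 and 11 UMIs, at 15.3 against 200.3 CPM and 43.7 against 170.2 CPM. H2-Eb2, a class II gene outside that list, was among the 15 highest genes, at 340.1 against 3.36 CPM and 500.2 against 2.19 CPM. Without the limit on H2-Ab1, the median log2 ratio of the list was -0.96 in BTYNB and -0.72 in combination in place of -0.17 and -0.14.

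Markers of type 1 and type 2 DCs were low in mature DCs, which follows in part from choosing comparison DCs by such markers. Of 15 type 1 genes, 0 were higher and 12 lower, and of 10 type 2 genes, 0 were higher and 4 lower. Naaa, a lysosomal amidase of type 1 DCs, was at 98.6 against 1661 CPM in BTYNB and 143 against 1886 CPM in combination, and Wdfy4, needed for cross-presentation, at 48.6 against 928 CPM and 99.3 against 919 CPM. Irf8, the transcription factor of type 1 DCs, was at 205 against 966 CPM and 421 against 1203 CPM. Mgl2, a lectin of type 2 DCs, was at 18.0 against 476 CPM and 11.9 against 397 CPM, and Itgam had 17 UMIs in BTYNB and 0 in combination, at least 15.7-fold lower in the latter. Against 1 type alone some of this turned round: the median log2 ratio was 0.38 for type 2 genes in BTYNB against type 1 DCs and 0.39 for type 1 genes in combination against type 2 DCs.

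The type markers were concentrated in a few mature cells. At least 2 UMIs of Xcr1, Clec9a and Cd209a together were found in 4 mature DCs of BTYNB and 5 of combination, with median totals of 14108 and 6491 UMIs. Xcr1 had 32 UMIs in 4 cells of BTYNB and 28 UMIs in 4 cells of combination, while Cd209a had 4 UMIs in 1 cell and 0. Id2, a factor of type 1 development that both types express, was at 1119 against 575 CPM in BTYNB and 1310.2 against 682 CPM in combination, and Klf4 at 945 against 550.0 CPM and 1243 against 696 CPM.

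Among the other genes with the largest ratios, Fabp5, a fatty acid binding protein, was at 3209.9 against 18.4 CPM in BTYNB and 3021 against 12.7 CPM in combination, or 174-fold (143 to 214) and 238-fold (179.8 to 322) higher. It was detected in 95.2% and 92.3% of thinned mature DCs, 5.19% and 3.11% of comparison DCs and 13.2% and 14.0% of tumour cells. Mreg, which acts in organelle transport, was at 397 against 0.177 CPM and 401 against 0.732 CPM. Tmem123, a membrane protein, was at 4786 against 199.8 CPM and 4498 against 174 CPM, and Cacnb3, a calcium channel subunit, at 1511 against 17.2 CPM and 1314 against 22.7 CPM. The remaining higher genes were Slc4a8, Anxa3, Zmynd15, Eno3, Slco5a1 and Tmem150c, of which Zmynd15 was at 205 against 2.12 CPM and 274 against 2.44 CPM. Anxa3 and Cacnb3 were also tumour cell transcripts, with a UMI in 52.1% and 50.3% and 41.6% and 41.3% of thinned tumour cells of BTYNB and combination. The lowest genes further held Ckb, Cfp, Plbd1, Tbxas1, Klrb1b, Ctnnd2, Hepacam2 and Ifi205, of which Plbd1 was at 108 against 1190.3 CPM and 107 against 1009.6 CPM.

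**Figure D4:**
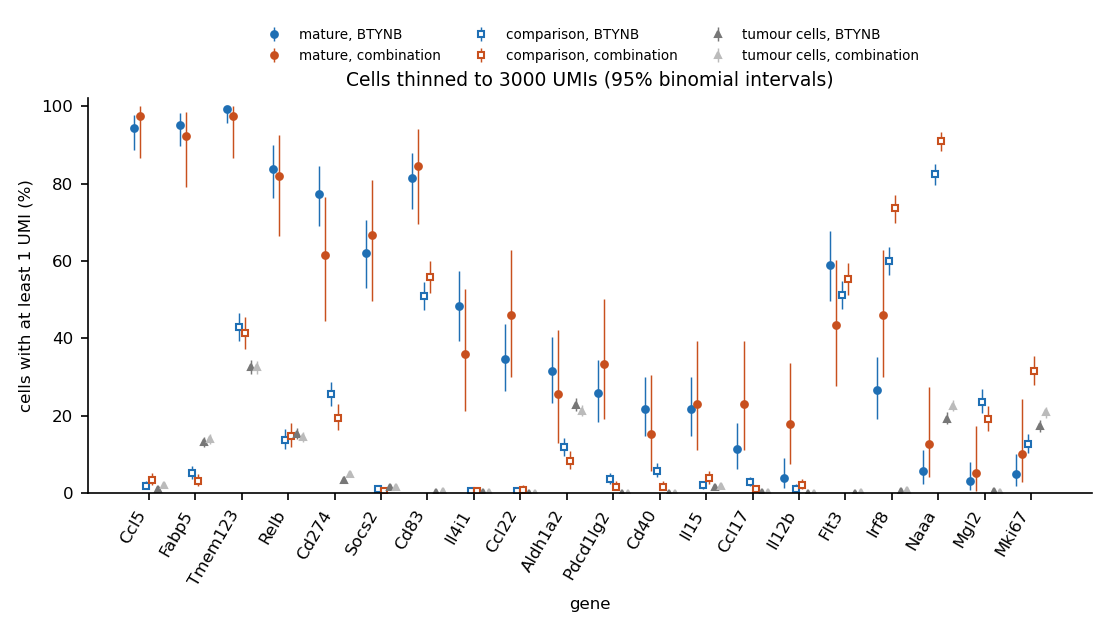
Share of cells with at least 1 UMI of a gene, in percent, after each cell was thinned to 3000 UMIs, for mature DCs, comparison DCs and tumour cells of the BTYNB and combination libraries, with exact 95% binomial intervals as lines. Of mature DCs, 124 of 149 and 39 of 39 were deep enough; Ccl5 and Fabp5 were found in nearly all of them, Ccl22, Ccl17 and Il12b in a smaller share.

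Of 20 cell cycle genes, 0 were higher and 10 lower, with median log2 ratios of -1.57 in BTYNB and -1.14 in combination. Mki67, a marker of cycling cells, was at 29.2 against 134 CPM in BTYNB and 111 against 290.2 CPM in combination. Of 17 interferon-stimulated genes, 2 were higher and 2 lower, the antiviral gene Mx1 being higher at 88.9 against 24.4 CPM and 99.3 against 36.6 CPM. Of 12 GTPase genes induced by interferon-gamma, 3 were higher and 2 lower, with Gbp2 at 435 against 123 CPM and 572 against 127 CPM and Gbp5 at 139 against 13.1 CPM and 127 against 11.0 CPM.

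Markers of other cells were counted in the same way. Of 10 macrophage and monocyte markers, 0 were higher and 5 lower, and their summed level was 342 against 995 CPM in BTYNB and 119 against 964 CPM in combination. Of 6 markers of plasmacytoid DCs, 1 was higher and 0 lower. The higher member was the transcription factor Spib, at 137 against 5.49 CPM and 210.4 against 4.15 CPM, while Siglech, which defines plasmacytoid DCs, had 0 UMIs in mature DCs. For T, B and NK cells and tumour cells, 2, 3, 3 and 5 markers had enough UMIs, and 0 of each were higher or lower. The summed tumour cell markers were at 139 against 87.9 CPM in BTYNB and 329.5 against 197 CPM in combination, and their part in the levels above was not tested. Mcpt4, a mast cell protease, had 78 UMIs in 1 mature cell of BTYNB and 0 in combination.

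The 2 BTYNB-treated libraries were then compared within mature DCs, which asks how these cells differed when the PD-1 antibody was added. Of 3100 genes with at least 50 UMIs, 41 (1.32%) were at least 2-fold higher and 95 (3.06%) at least 2-fold lower in combination. Scaling by the median of ratios gave 30 and 121, or 19.9% in place of 30.1% higher. Among comparison DCs, 34 of the 41 and 60 of the 95 had a ratio of the same sign, and 7 and 3 were also at least 2-fold. The same shares over all 3100 genes were not counted, so nothing is concluded from these counts. The median log2 ratio in comparison DCs was 0.24 for the 41 genes and -0.11 for the 95, beside -0.0091 for all genes. The comparison DCs differed in make-up, with 445 type 1 and 326 type 2 cells in BTYNB and 413 and 143 in combination. The part of this mix in their ratios was not tested. With cells of at least 5115 UMIs alone, 25 of 1996 genes were higher and 44 lower, of which 13 and 19 were among the 41 and 95.

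For genes that marked mature DCs, the ratio of combination to BTYNB was 1.64 (1.32 to 2.05) for Ccl22, 1.3 (1.10 to 1.54) for Relb, 0.941 (0.866 to 1.02) for Fabp5 and 1.01 (0.650 to 1.52) for Pdcd1lg2. For Ccl22, 59 of the 131 UMIs of combination were in 1 cell, and without the highest cell of each library its log2 ratio went from 0.71 to 0.04. Ccl5 was 1.43-fold (1.34 to 1.53) lower in combination and Cd274 1.31-fold (1.07 to 1.6). Cd80 was 2.02-fold (1.29 to 3.30) lower and the costimulatory ligand Icosl 3.38-fold (1.70 to 7.64). Of 9 checkpoint and regulatory genes, 16 NF-kB genes, 18 cytoskeleton genes and 16 MHC class I genes with enough UMIs, 0 were at least 2-fold higher or lower. The same held for 12 MHC class II genes, 11 genes of the IL-4 receptor and GM-CSF list and 9 survival genes. Of all genes, 1.32% were higher and 3.06% lower. Of 8 chemokines, 2 were lower, and of 4 cell cycle genes, 2 were higher. The count used log2 ratios, on which Cd80 was at -0.98. In the costimulation, pan DC, type 2 DC, macrophage, plasmacytoid DC and neutrophil and mast cell lists 1 gene each was lower, and in the cytokine, migration and type 1 DC lists 1 gene each was higher.

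**Figure D5:**
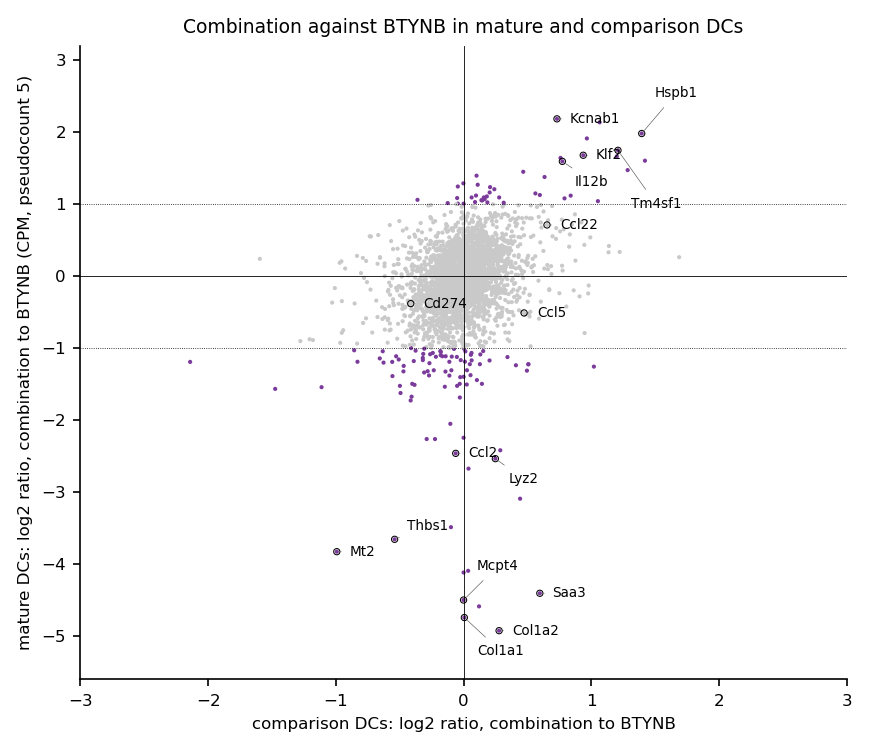
Log2 ratio of combination to BTYNB in comparison DCs (horizontal) and in mature DCs (vertical), each point 1 of 3100 genes, from CPM with 5 CPM added. The 41 genes at least 2-fold higher and the 95 at least 2-fold lower in mature DCs are coloured, and Mcpt4, Col1a1 and Saa3 lie far down in mature DCs.

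Of the 10 genes with the highest ratios, 7 were more abundant in tumour cells than in mature or comparison DCs of either library. Lgals1, encoding galectin-1, was at 379 and 1191 CPM in mature DCs of BTYNB and combination, 523 and 889 CPM in comparison DCs and 12452 and 13089 CPM in tumour cells. Tm4sf1, a tetraspanin-like membrane protein, was at 65.3 and 230.3 CPM in mature DCs, 39.5 and 97.8 CPM in comparison DCs and 2054 and 2129 CPM in tumour cells. The others were Cald1, Igfbp5, Hspb1, Kcnab1 and Stmn1. The part of tumour RNA in these ratios was not tested.

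Stmn1 and Top2a, genes of cycling cells, were higher in both kinds of DC, Top2a at 33.3 and 139 CPM in mature and 174 and 344 CPM in comparison DCs. Klf2, a transcription factor of quiescent lymphoid cells, was at 157 and 512 CPM in mature DCs, 298 and 575 CPM in comparison DCs and 32.3 and 33.6 CPM in tumour cells. Il12b had a ratio of 3.12 (2.20 to 4.44), but without the highest cell of each library its log2 ratio went from 1.59 to 0.58, and without the cells with comparison markers to 0.39. Irf8 had a ratio of 2.05 (1.58 to 2.65), and its log2 ratio went from 1.02 to 0.87 without the highest cell of each library.

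Several of the 10 lowest genes came from 3 cells of BTYNB. At least 5 UMIs of the fibroblast genes Col1a1, Col1a2 and Pdgfra and the mast cell genes Mcpt4, Cma1, Tpsb2 and Cpa3 together were found in 3 mature DCs of BTYNB and 0 of combination. Of these, 2 cells held fibroblast and 1 held mast cell transcripts, and the 3 cells had 5 Ccl5 UMIs in all. Without them, 45 of 2992 genes were higher and 86 lower in combination. The log2 ratio of Saa3, an acute phase protein, went from -4.41 to 0.85 and that of the protease inhibitor Slpi from -4.59 to 0.84. The metallothionein Mt2 was spread over more cells, at 179 and 7.94 CPM in 40 and 2 mature DCs and 101 and 48.3 CPM in comparison DCs. Outside the named 10, the chemokine Ccl2 was at 154 and 23.8 CPM in mature and 224 and 214 CPM in comparison DCs, and the lysozyme Lyz2 at 162 and 23.8 CPM in mature and 486 and 578 CPM in comparison DCs. Of the 117 Lyz2 UMIs of BTYNB, 80.3% were in 5 cells, and a Lyz2 UMI was found in 19 of 149 and 5 of 39 mature DCs, or 9.68% and 7.69% after thinning.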

How the data were processed

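Ascites cells of mice pooled by treatment were depleted of erythrocytes, cryopreserved, freed of dead cells and captured on the BD Rhapsody system. The authors deposited UMI counts per gene and cell from the vendor's pipeline, on GRCm39 per the submitters' processing notes, without normalization. The filter that set the lowest UMI count of each library (869 to 5115) is not given in the sources used here.

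UMIs were summed per library and kind of cell and scaled to CPM. Log2 ratios used a pseudocount of 5 CPM and genes with at least 50 UMIs, so ratios of low genes are understated. No test was made, since each treatment has 1 library and the kinds of cell were chosen on measured transcripts. Intervals at 95% were exact binomial (Clopper-Pearson) for shares, exact Poisson for levels and conditional binomial for ratios. Bounds against 0 UMIs used a floor of 3 counts per library. Tumour cells had at least 10 UMIs of the 4 keratins and no Ptprc UMI. Shares of cells with a UMI used cells thinned to 3000 UMIs, which left out 25 of 149 mature DCs of BTYNB and 0 of 39 of combination. Doublets were called with Scrublet (scanpy 1.11.5), which marked 2.61% of BTYNB cells but 0.0710% of combination cells and so did not work there. Cells with the top 5% of scores were left out as an alternative. Promoters were matched by symbol, not by coordinates, to a RefSeq table on GRCm38.p6. The scripts were tested on simulated counts. Python 3.11.15, numpy 2.4.6, scipy 1.17.1 and pandas 2.3.3 were used.

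The text names the 15 genes with the largest and the 15 with the lowest ratio in both libraries, the 10 highest and 10 lowest between libraries by the interval bound nearest 0, and members of the lists. The members, lists and rules were chosen with earlier results of these data known. Tenm3 and the cells with fibroblast or mast cell transcripts were singled out after their values were seen. A member of the migration list is not reported by name here.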

Additional observations from a re-analysis of the deposited data

Results flagged for a closer look

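Tenm3, a cell adhesion molecule of the teneurin family, was the 1 gene at least 2-fold lower in mature than in comparison DCs of BTYNB and at least 2-fold higher in combination. Its log2 ratio was -1.37 in BTYNB, from 4 UMIs in mature and 126 in comparison DCs, and 1.18 in combination, from 23 and 154 UMIs. The levels were 5.55 against 22.3 CPM and 91.3 against 37.6 CPM, beside 90.1 and 126 CPM in tumour cells of BTYNB and combination. The difference between the libraries was not tested.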

How the results depend on the processing

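No paired analysis was possible because no result comes from a test, with 1 library for each treatment and kinds of cell chosen on measured transcripts. The counts of genes higher and lower in both libraries stayed within 1.5 times of 600 and 877 under every alternative run. Of values of named genes between mature and comparison DCs, 830 of 840 kept their size and sign, and of list medians 636 of 684 did. Between combination and BTYNB, 203 of 220 values of named genes did, and 13 were reversed. The mature share of BTYNB cells, 0.815%, was 1.22% after thinning before the definition, 1.11% over leukocytes and 15.7% over mature and comparison DCs. The share of mature and comparison DCs was 7.23% with cells of at least 5115 UMIs and 13.3% after thinning. For combination the share of leukocytes was 1.49% and of DCs 6.31%, the latter being 5.19% after thinning. Without the H2-Ab1 limit, the shares of all cells were 1.75% in BTYNB and 0.966% in combination, and of DCs 27.7% and 10.5%. The 41 higher and 95 lower genes of combination were of 3100 genes, and the number of genes measured changed with the setting. They became 1038 and 1046 of 14533 with no filter on low genes and 3 and 7 of 795 with at least 200 UMIs. With cells of at least 5115 UMIs they were 25 and 44 of 1996. Without the H2-Ab1 limit they became 48 and 141 of 4733, of which 17 and 51 were among the 41 and 95. Averaging over cells gave 63 higher. The log2 ratios of Mcpt4 and Cma1 between libraries went to 0 with cells of at least 5115 UMIs, with stricter thresholds and without cells of another lineage, where those of Col1a2 and Pdgfra also went to 0, and Tpsb2 went to 0.84, 0.94 and 0.84. Without those cells Saa3 was 0.85 and Slpi 0.84. In BTYNB, the neutrophil and mast cell median was -0.32 with no filter, the macrophage median 0.0062 at the floor, and the type 2 median 0.38 against type 1 DCs. Against type 2 DCs, the type 1 median of combination was 0.39 and its Tlr3 ratio 1.26. The cause of these changes was not tested. The alternatives without cells of another lineage, without cells with comparison markers, without the highest cell of a gene and without the H2-Ab1 limit were chosen after seeing the data. With 39 mature DCs in combination, few genes had the UMIs for a narrow interval.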
